A study of Mus musculus with 4 samples.

Results

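Standard promoter tiles on a p53 ChIP-chip array are stretches of mouse autosome that are covered by neighbouring probes over 6500 to 8500 bp with at least 20 probes. They were built by sorting the probes by position and joining probes whose starts lay less than 2000 bp apart. This gave 9201 standard tiles, 4788 on array design 1 and 4413 on array design 2, of 16549 tiles in all. They held 294493 of the 473503 probes kept (62.2%). Whether a tile holds a single promoter, as its working name says, could not be checked, because the array files pair no probe with a gene. Position along the tile was measured in 2 ways, as the distance from the nearer end of the tile and as the distance from its stretch of shortest probes.

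The data were 4 arrays of R1E mouse embryonic stem cells, 1 array per condition and array design. The medium held LIF (a factor that keeps such cells undifferentiated) at 1000 units/ml. The control group stayed untreated, and the other was given adriamycin (doxorubicin), which breaks DNA, at 0.5 µM for 8 h. The precipitation used 10 µg of an antibody to p53. Immunoprecipitated (IP) DNA carried Cy5 and input DNA Cy3 on every array, with no dye swap, after amplification by ligation-mediated PCR. The comparison asked which sites p53 occupies in undamaged cells and which after the drug. The 2 designs cover different chromosomes, apart from chromosome 9, which is split between them, so they are not replicates of each other. No slide held more than 1 array, and effects of slide and of condition cannot be told apart. No value here has a test, since precision is limited by the number of arrays.

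p53 is a transcription factor that is stabilised after DNA damage and binds as a tetramer to response elements in and around promoters, from which it activates genes of cell cycle arrest, DNA repair and cell death. It is also abundant in undisturbed embryonic stem cells. Mammalian promoters often lie in CpG islands, short GC-rich blocks around transcription starts. Makers of tiling arrays commonly shorten probes over GC-rich sequence to even out melting temperatures, so a run of short probes can be read as a likely GC-rich block. The sequence itself was not analysed here.

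The probes of the standard tiles were 45 bases or shorter in 16.7% of cases and of the full length of 60 bases in 41.0%, with a median of 56. A tile had a median width of 7697 bp (interquartile range 7416 to 7867) and a median of 32 probes (20 to 52), with 178 bp between starts of neighbouring probes. The stretch of shortest probes was the run of 5 neighbouring probes with the lowest mean length, at a median of 47.2 bases. A single such stretch existed in 8833 tiles (96.0%). In 355 tiles equally short runs lay apart, and 13 tiles had only full-length probes. Values by distance from the stretch below are over the 8833 tiles with a single stretch and their 245867 windows. The stretch did not lie in the middle of the tile. Its median distance was 2203 bp from the nearer end (interquartile range 1808.5 to 2480) and 5469.5 bp from the farther end, and in 9.50% of tiles it lay within 1000 bp of an end. The longer arm of the tile lay to the right of the stretch in 4372 tiles and to the left in 4461. The 2 arms of a tile were thus unequal, with no preferred direction along the chromosome. Which arm lies upstream of a gene was not analysed here.

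Signal is given as the log2 ratio of IP to input, with the median of its array set to 0. A window is 3 neighbouring probes spanning at most 1000 bp, and a window at 2 or more has a mean ratio at least 4 times the array median. Of the 256041 windows on standard tiles, 11521 (4.50%) were at 2 or more in the untreated arrays and 10726 (4.19%) with adriamycin. Over all 406114 windows of the series the shares were 3.84% and 3.59%. Windows at -2 or less served as a count in the opposite direction and numbered 182 untreated (0.0711%) and 31 with adriamycin (0.0121%), against 0.0889% and 0.0239% of windows over the series. The standard tiles thus carried somewhat more high windows than the series as a whole. Autosomal tiles over 8500 bp had 3.36% untreated and 3.32% with adriamycin, and those under 6500 bp 1.39% and 1.31%. Within the standard widths the share was not even. It was 1.48% untreated and 1.60% with adriamycin in tiles of 6500 to 7000 bp, 4.49% and 4.17% in tiles of 7000 to 8000 bp, and 6.52% and 5.99% in tiles of 8000 to 8500 bp.

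IP signal was lowest at the ends of the tiles and highest about 2000 to 2500 bp inside them. In the outermost 500 bp the mean log2 ratio on design 1 was -0.01 untreated and -0.08 with adriamycin, and on design 2 -0.01 and -0.06. Between 2000 and 2500 bp from the nearer end it was 0.29 and 0.33 on design 1, and 0.31 and 0.40 on design 2. Past that point, in the middle of the tile, it fell back in all 4 arrays, to between 0.00 and 0.08 beyond 3500 bp. The peak therefore did not lie at the tile's centre but at the depth where most stretches of short probes lie. Probes were shortest there too, with a mean of 52.0 bases against 55.5 in the outermost 500 bp. The share of windows at 2 or more followed only part of this course. Both designs together, it was 2.74% untreated and 2.67% with adriamycin in the outermost 500 bp, 5.41% and 5.13% at 2000 to 2500 bp, and 4.89% and 4.50% beyond 3500 bp, so high windows stayed frequent in the middle of tiles where the mean ratio was low.

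**Figure D1:**
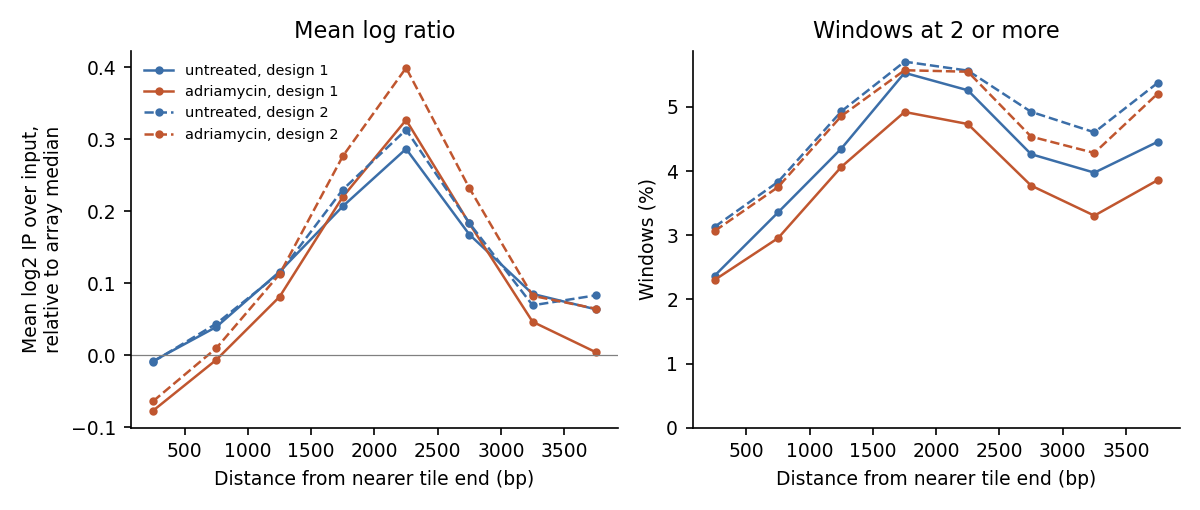
Mean log2 IP over input (left) and percent of 3-probe windows at 2 or more (right) in 500 bp bins of the distance from the nearer tile end, for each of the 4 arrays (solid lines design 1, dashed lines design 2). The mean is highest at 2000 to 2500 bp in all 4 arrays, between 0.29 and 0.40, and close to 0 at the ends. The share of high windows is 2.31% to 3.13% at the ends and 3.86% to 5.37% beyond 3500 bp.

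The mean within 1000 bp of an end lay below the mean at least 2500 bp from both ends by 0.10 untreated and 0.15 with adriamycin. Over the 19 autosomes, which share arrays and are not replicates, the signed difference was -0.10 ± 0.04 (SD, n = 19) untreated and -0.16 ± 0.04 (SD, n = 19) with adriamycin, and below 0 on all 19. With the background correction normexp, which fits the signal of each array anew, the untreated difference had the opposite sign, at 0.02. Among probes more than 2000 bp from the stretch, mean length hardly varied with distance from an end, at 55.7 to 55.9 bases. Single probes there still differed in length. The mean untreated ratio of these probes went from -0.04 in the outermost 1000 bp to 0.03 at 3000 to 4000 bp from an end. With adriamycin it went from -0.10 to -0.03. The share of windows at 2 or more went from 2.15% to 3.96% untreated and from 2.19% to 3.63% with adriamycin. The mean ratio was thus also low at the ends among these probes, by less than over all probes. Distance from an end still went with distance from the stretch and with tile width there, and their parts were not tested. By distance from the stretch, 3.13% of untreated windows were at 2 or more at 2000 to 2500 bp and 2.25% at 5000 to 5500 bp.

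The stretch of shortest probes organised the profile more sharply than the tile ends did. Within 500 bp of the stretch the mean log2 ratio on design 1 was 0.47 untreated and 0.58 with adriamycin, and on design 2 0.54 and 0.73. Beyond 2000 bp it was -0.01 and -0.08 on design 1, and -0.03 and -0.08 on design 2. For both designs together the means near the stretch were 0.50 ± 0.09 (SD over 19 autosomes) untreated and 0.65 ± 0.11 with adriamycin, and those far from it -0.02 ± 0.03 and -0.08 ± 0.04. All 4 arrays were high near the stretch and low far from it, and between 500 and 2000 bp they lay between 0.10 and 0.16. The contrast of near minus far was above 0 on all 19 autosomes in both conditions, at 0.54 ± 0.09 (SD, n = 19) untreated and 0.75 ± 0.11 with adriamycin. It had the same sign for longer tiles (0.42 untreated and 0.69 with adriamycin) and for shorter tiles (0.34 and 0.52).

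Other quantities moved with the distance from the stretch, and their part in the contrast was not tested. Mean probe length was 48.7 bases near the stretch and 55.8 far from it. Mean log2 input signal, relative to its array median, was 1.02 near and -0.52 far in the untreated arrays, and 1.03 and -0.45 with adriamycin. The IP signal on the same scale was 1.59 near and -0.46 far untreated, and 1.73 and -0.47 with adriamycin. Both channels were thus brighter over short probes, the IP channel more so. Probes were denser near the stretch, at 5.05 per 1000 bp against 3.87 far from it, and 95.4% against 75.7% of positions had a window within 250 bp. The median SD over the 3 probes of a window went from 0.50 near to 0.66 far untreated, and from 0.39 to 0.46 with adriamycin. Subtracting the mean of probes of the same length on the same array left a near minus far contrast of 0.21 untreated and 0.29 with adriamycin. With full-length probes alone it was 0.19 and 0.24. With normexp the contrast was -0.04 untreated and 0.19 with adriamycin, and the sign differed between arrays. It was 0.11 untreated and -0.06 with adriamycin on design 1, and -0.20 untreated and 0.47 with adriamycin on design 2. Fitting normexp without spots of extreme local background (0 and 5 spots on design 1, and 11 and 5 on design 2) gave 0.11 and 0.16 on design 1, and 0.19 and 0.47 on design 2.

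**Figure D2:**
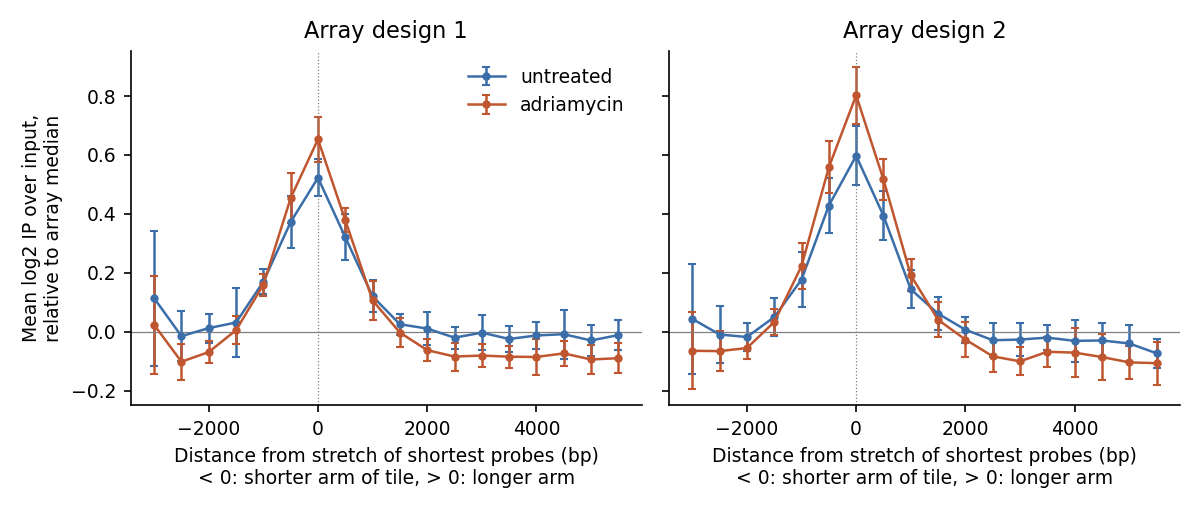
Mean log2 IP over input in 500 bp bins of the distance from the stretch of shortest probes, with negative distances on the shorter arm of the tile, and bars of 1 SD over the autosomes of each design. The central bin is the highest in all 4 arrays, at 0.52 and 0.65 on design 1 and 0.60 and 0.80 on design 2 (untreated and adriamycin), and adriamycin is above untreated there but below it beyond 2000 bp on the longer arm; with normexp the contrast has the opposite sign untreated on design 2 (-0.20) and with adriamycin on design 1 (-0.06).

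Windows at 2 or more were also most frequent near the stretch. On design 1, 6.70% of windows within 500 bp were at 2 or more untreated and 6.004% with adriamycin, and on design 2 7.46% and 7.46%. Between 500 and 2000 bp design 1 had 4.57% and 3.94%, and design 2 had 5.50% and 5.10%. Beyond 2000 bp they were 2.49% and 2.34%, and 2.83% and 2.84%. The order near, middle, far was the same in the 4 arrays. Windows at -2 or less had the opposite order, with 0.00943% near and 0.100% far in the untreated arrays. Of the windows at 2 or more in tiles with a single stretch, 27.8% untreated and 28.4% with adriamycin lay within 500 bp of the stretch, where 17.2% of all windows lie. Close to the stretch the 2 arms differed. On design 1 untreated, 7.34% of windows were at 2 or more between 250 and 750 bp from the stretch on the shorter arm, and 5.67% at the same distance on the longer arm. With adriamycin these values were 6.44% and 4.88%. On design 2 they were 7.48% and 6.68% untreated, and 7.05% and 6.50% with adriamycin. All 4 arrays had the higher share on the shorter arm, by 0.55 to 1.67 percentage points. Farther out this did not hold. At 1750 to 2250 bp, both designs together, 3.16% of untreated windows were high on the shorter arm and 3.46% on the longer arm.

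**Figure D3:**
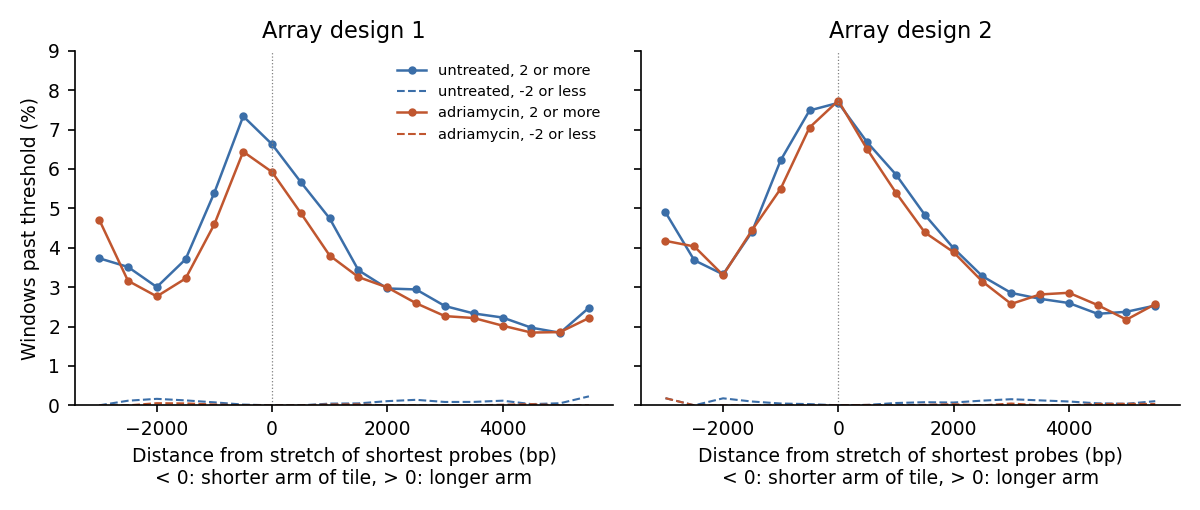
Percent of 3-probe windows at 2 or more (solid lines) and at -2 or less (dashed lines) in 500 bp bins of the distance from the stretch of shortest probes, negative on the shorter arm. High windows peak within 750 bp of the stretch on both designs, at 7.34% and 6.44% on design 1 and 7.68% and 7.73% on design 2 (untreated and adriamycin), and windows at -2 or less stay near 0 throughout.

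Among windows of the same probe length, the share at 2 or more was not highest within 500 bp of the stretch. With both designs together it was above the share beyond 2000 bp in the classes under 50 bases and below it in the longer classes. Single designs did not always keep this order. Windows with a mean probe length of 46 to under 50 bases were at 2 or more in 7.43% of cases untreated and 6.78% with adriamycin within 500 bp of the stretch. Between 500 and 1000 bp these shares were 12.7% and 11.3%, between 1000 and 2000 bp 10.9% and 10.07%, and beyond 2000 bp 5.83% and 6.19%. The highest shares of this class thus lay at 500 to 2000 bp from the stretch. These windows came from 5994 tiles within 500 bp, 3254 at 500 to 1000 bp, 2538 at 1000 to 2000 bp and 2769 beyond. The shares are thus of different sets of tiles, and position within the same tiles was not tested. The difference of 500 to 2000 bp minus within 500 bp was 4.40 percentage points untreated and 3.90 with adriamycin, and above 0 on 18 of 19 autosomes untreated and on 19 of 19 with adriamycin. Its size depended on how the stretch was defined, and with a stretch of 9 probes in place of 5 it was 0.30 untreated and 0.42 with adriamycin. Windows under 46 bases had 11.9% and 11.3% near, 20.3% and 18.2% at 1000 to 2000 bp, and 10.9% and 11.02% beyond 2000 bp. Full-length windows had 0.55%, 1.25% and 0.89% at these distances in the untreated arrays, the first being 2 of only 366 windows. Across classes of length, the share at 2 or more fell from 12.8% under 46 bases to 1.07% at 60 bases in the untreated arrays, and probe length separated the windows more than distance did.

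**Figure D4:**
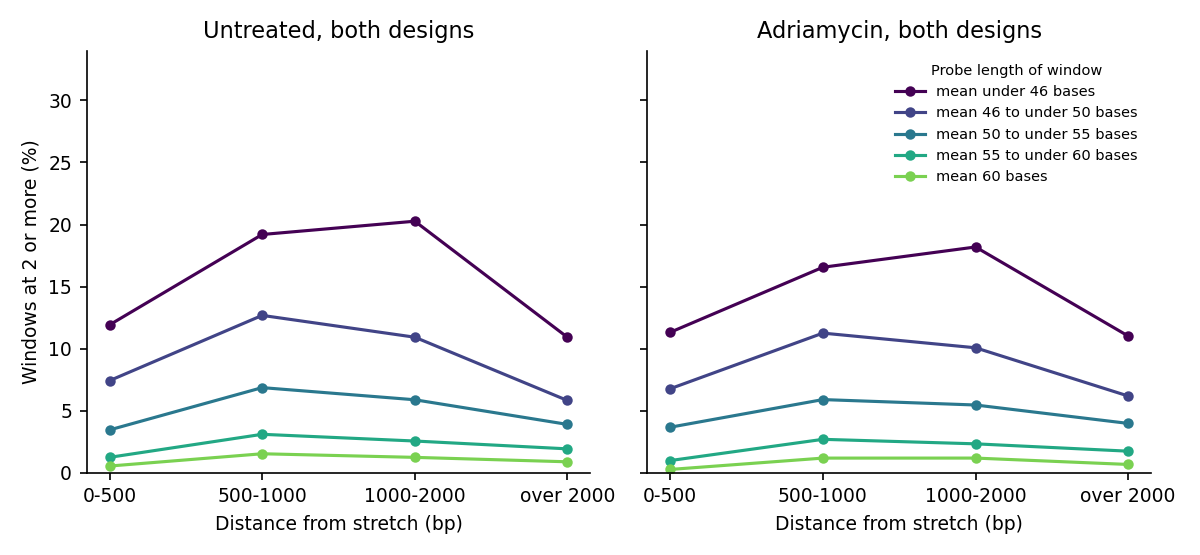
Percent of windows at 2 or more by distance from the stretch, in 5 classes of the window's mean probe length, for the untreated (left) and adriamycin (right) arrays of both designs together. In each class the share at 500 to 1000 bp exceeds that within 500 bp, as for 46 to under 50 bases with 12.7% against 7.43% untreated and 11.3% against 6.78% with adriamycin.

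Height and position went together in a way that differed between moderate and very high windows. With adriamycin, 43.6% of windows at 1 to 1.5 lay within 500 bp of the stretch, 38.0% of those at 1.5 to 2, 32.5% of those at 2 to 2.5, 22.2% of those at 3 to 4 and 22.6% of those at 4 or more. In the untreated arrays the shares were 29.8%, 31.4%, 31.3%, 25.04% and 18.3%. The highest windows were therefore less concentrated at the stretch than windows of middle height. Of untreated windows at 4 or more, 32.8% lay beyond 2000 bp, where 42.1% of all windows lie.

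High windows were gathered in few tiles. At least 1 window at 2 or more was present in 1388 tiles untreated (15.1%) and in 1456 with adriamycin (15.8%), and in 965 tiles under both conditions, which is 69.5% of the untreated and 66.3% of the adriamycin tiles. Another 423 tiles had such windows untreated alone and 491 with adriamycin alone, and 7322 had none. Tiles with 10 or more high windows numbered 409 untreated and held 73.0% of all high windows, and 343 with adriamycin held 65.9%. Tiles with 1 to 4 numbered 737 and 849. The contrast of near minus far was also present in tiles without any high window. In the 7028 of those tiles with a single stretch the mean near it was 0.26 untreated and 0.43 with adriamycin, and beyond 2000 bp -0.14 and -0.20. In the 921 tiles with a single stretch and high windows under both conditions it was 2.05 and 2.01 near and 0.69 and 0.59 far. These classes were chosen by the signal itself, so their levels are a description. In the 316 tiles with a single stretch and 10 or more high windows with adriamycin, 87.5% of windows near the stretch and 34.6% of windows beyond 2000 bp were at 2 or more in the same arrays, so that broad tiles too were lower far from the stretch.

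Merging overlapping or adjoining high windows of a tile gave 1697 sites untreated and 1700 with adriamycin, with a median width of 885 and 894 bp. Among sites of tiles with a single stretch, the highest window lay within 500 bp of the stretch in 30.7% of untreated and 32.7% of adriamycin sites, and beyond 2000 bp in 25.9% and 26.6%. Sites of up to 1000 bp numbered 933 and 945, and their highest window lay far from the stretch in 32.6% and 31.2%. Sites of over 1000 and up to 2000 bp numbered 357 and 410, with 15.4% and 22.6% far. Sites over 4000 bp numbered 146 and 120, and 80.8% and 82.5% of them ran up to an end of their tile. The full width of such a site was not measured here.

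The profile was steeper at the stretch in the arrays with adriamycin. The mean difference of adriamycin minus untreated was 0.11 on design 1 and 0.18 on design 2 near the stretch, -0.01 and 0.02 between 500 and 2000 bp, and -0.07 and -0.05 beyond 2000 bp. The contrast of near minus far was 0.47 untreated and 0.66 with adriamycin on design 1, and 0.57 and 0.81 on design 2. It was higher with adriamycin on all 19 autosomes, by 0.21 ± 0.04 (SD, n = 19), with a range of 0.15 to 0.29. It was also higher under each of the 17 settings for both designs together, by 0.04 to 0.30, and in 33 of 34 cases when the designs were taken apart. The exception was normexp on design 1. With 1 array per condition, a difference between the arrays and an effect of adriamycin cannot be told apart. The share of windows at 2 or more within 500 bp was 6.70% with adriamycin and 7.06% untreated. Which condition had more high windows depended on the scaling. Adriamycin had more in 3 of the 17 settings, with 12369 against 10185 untreated when both arrays of a design were brought to equal spread, 3666 against 2840 with normexp, and 4289 against 4202 with normexp without extreme backgrounds.

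The place of the highest window of each tile differed likewise. It lay within 500 bp of the stretch in 33.0% of the 8833 tiles untreated and in 47.8% with adriamycin. Design 1 had 29.9% and 44.5%, and design 2 had 36.4% and 51.3%. Adriamycin was higher on 19 of 19 autosomes, by 14.8 ± 3.0 percentage points (SD, n = 19), and in 33 of 34 cases of setting and design, again apart from normexp on design 1. The shift was larger in tiles of low signal, a difference that was not tested. In the 7028 tiles under 2 in both conditions the shares were 33.2% and 50.4%, whereas in the 921 tiles at 2 or more in both they were 34.2% and 36.7%. In those 921 tiles the highest windows of the untreated and adriamycin arrays lay within 500 bp of each other in 74.6% of cases, against 39.9% in the 7028 low tiles. Both classes were chosen by the height of these same windows, so the shares are a description. The arrays with adriamycin also had the smaller SD over the probes of a window, 0.39 against 0.50 near the stretch, and the part of this in the shift was not tested.

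Of the windows on standard tiles, 10639 (4.16%) were higher with adriamycin by 1 or more and 14596 (5.70%) lower, against 4.26% and 5.78% over the series. Windows that were higher made up 3.92% near the stretch, 4.01% at 500 to 2000 bp and 4.33% beyond. Windows that were lower made up 2.37%, 4.76% and 7.85%. Lower windows thus lay mostly far from the stretch, whereas higher windows were spread almost evenly. Over the 8833 tiles with a single stretch, high windows with adriamycin that were higher by 1 or more numbered 883 in 440 tiles, of which 29.2% lay near and 32.6% far. Their mean change was 1.54 in the IP channel and 0.15 in the input channel. High untreated windows that were lower by 1 or more numbered 1005 in 510 tiles, of which 17.0% lay near and 37.5% far. Their IP channel changed by -0.52 and their input channel by 1.12, from a median untreated input of -0.89 on the log2 scale. The input channel thus carried most of the change in these 1005 windows and little of it in the 883 that were higher. Both sets were chosen by a high ratio as well as by the change, which bears on the channel values. Channel changes of all lower or higher windows are not given here.

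Named windows at the stretch, far from it and near tile ends were chosen by their value with adriamycin. That choice favours higher values with adriamycin than untreated. By that value, the tiles with the highest windows at the stretch itself were led by a tile on chromosome 15 from 85682415 to 85690220. Its window from 85687520 to 85687909, 159.5 bp from the stretch, was at 4.79 ± 0.38 (SD over 3 probes, which are not replicates) untreated and 5.09 ± 0.54 with adriamycin. Its 3 probes, of 45, 45 and 53 bases, read 4.47, 5.21 and 4.69 untreated and 4.68, 5.69 and 4.89 with adriamycin. The tile was otherwise flat, with a median of -0.04 and 0.22, and 4 of its 24 windows were high in both arrays. A tile on chromosome 7 from 24588695 to 24595974 had the same shape, with 4.33 ± 0.96 and 4.83 ± 1.16 in its highest window and 4 of 27 windows high in both arrays. On chromosome 19, the tile from 4436943 to 4444383 had 3.77 ± 0.84 and 4.45 ± 1.14, and 3 of 19. The tile on chromosome 2 from 165844112 to 165851912 had 3.20 ± 0.33 untreated and 4.75 ± 0.15 with adriamycin, a difference of 1.55 that was 0.85 with normexp. With normexp the tiles on chromosomes 15 and 19 differed by 1.12 and 1.47, against 0.30 and 0.68 without it. With loess they differed by -0.14 and 0.28. In the chromosome 2 tile the IP channel changed by 1.18 and the input channel by -0.37. The remaining tile, on chromosome 1 from 78077625 to 78085706, had 5.08 ± 0.60 untreated and 4.60 ± 0.62 with adriamycin, a difference of -0.49 that was -1.01 with normexp. Untreated, its window was the highest of these tiles. The tile was high along its whole length, in 43 of 43 windows of both arrays.

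Equally high windows lay far from the stretch in other tiles. On chromosome 6, in the tile from 140581790 to 140589100, the window from 140583190 to 140583537 lay 3046 bp from the stretch on the longer arm and was at 4.72 ± 1.06 untreated and 4.85 ± 0.75 with adriamycin. Its probes of 60, 58 and 50 bases read 5.41, 5.24 and 3.49 untreated and 5.51, 4.99 and 4.04 with adriamycin. Long probes thus reached values as high as short ones. On chromosome 17, in the tile from 28816334 to 28823916, the window from 28818399 to 28818799 lay 3664 bp from the stretch, at 5.14 ± 0.95 and 4.77 ± 0.75. On chromosome 5, in the tile from 111048154 to 111054734, the window from 111054344 to 111054734 lay 4379 bp from the stretch and ran to the last probe of the tile, at 4.78 ± 0.72 and 4.85 ± 0.58. The part of that site beyond the tile was not measured. On chromosome 6, the tile from 52172937 to 52180903 had its highest window 5517 bp from the stretch, at 4.14 ± 0.31 and 4.49 ± 0.27, and was high in 41 of 41 windows of both arrays. On chromosome 2, the tile from 115754209 to 115762080 was at 4.36 ± 0.82 and 4.81 ± 0.47 at 3870 bp from the stretch, and high in 32 of 32. The 5 windows differed by -0.38 to 0.44 between conditions, and the direction was not stable. With a common input the differences ran from -0.67 to 0.79, with 0.79 on chromosome 5 (0.06 without it) and -0.67 in the tile on chromosome 2 (0.44 without it), and with loess from -0.71 to 0.47.

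Some of the highest windows lay at the very ends of tiles. Besides the tiles on chromosomes 5 and 2 just described, whose windows lay 195 and 982 bp from an end, they were found on chromosome 3 from 107724643 to 107725056, 650.5 bp from the end, at 4.84 ± 0.33 untreated and 4.76 ± 0.19 with adriamycin. On chromosome 7 from 99700195 to 99700527, 284 bp from the end, the window was at 3.50 ± 0.54 and 4.52 ± 0.63. On chromosome 2 from 79255329 to 79255619, 507 bp from the end, it was at 3.53 ± 0.71 and 4.41 ± 1.35. The chromosome 7 and chromosome 2 windows differed by 1.02 and 0.88. These differences were 0.47 and 0.39 with loess, and 1.88 and 1.63 with a common input. Their input channel changed by 0.88 and 0.78. The SD over the probes describes the spread along a window and gives no error for these differences.

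The 5 largest rises with adriamycin lay 1379 to 4987 bp from the stretch. Of all windows, 17.2% lie within 500 bp of it, and of the high windows that were higher by 1 or more, 29.2% do. On chromosome 19, in the tile from 6259589 to 6267270, the window from 6265077 to 6265411 went from 0.49 ± 0.36 untreated to 3.54 ± 0.53 with adriamycin. Its probes read 0.10, 0.59 and 0.79 untreated and 2.98, 3.61 and 4.03 with adriamycin, without overlap. No window of this tile was high untreated and 4 of 29 were with adriamycin, the highest of them on the longer arm 4503 bp from the stretch. On chromosome 7, the window from 35464190 to 35464527 went from -0.43 ± 1.04 to 2.45 ± 0.33, and on chromosome 2 the window from 180220914 to 180221234 from 1.13 ± 0.56 to 3.90 ± 0.30. On chromosome 7, the window from 112161405 to 112161857, made of full-length probes, went from 0.12 ± 0.31 to 2.84 ± 0.79, and on chromosome 9 the window from 108246039 to 108246379 from -0.05 ± 0.12 to 2.56 ± 0.27. In all 5 windows the IP channel carried the change, by 2.56 to 3.90, and the input channel changed by -0.33 to 0.99. The differences were 2.61 to 3.05, and 0.90 to 3.71 with normexp, so the direction held while the size depended on the background correction. With normexp the 2 windows on chromosome 7 were at 0.67 and 0.91 with adriamycin, under the threshold of 2. Each rise was narrow, covering 1 to 5 windows of its tile.

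**Figure D5:**
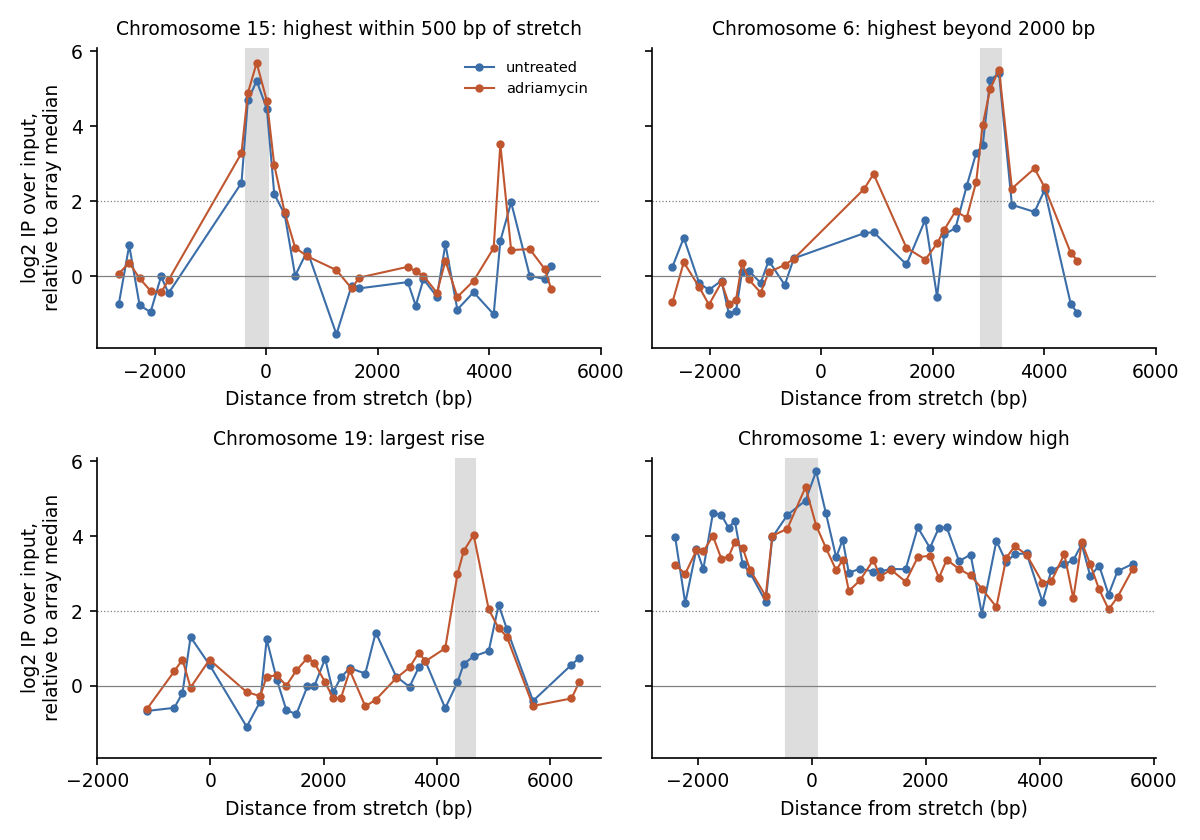
Log2 IP over input of each probe along 4 standard tiles, against the distance from the tile's stretch of shortest probes, untreated and with adriamycin; grey bands mark the windows described and the dotted line the threshold of 2. Peaks lie at the stretch on chromosome 15 (4.79 untreated and 5.09 with adriamycin), 3046 bp from it on chromosome 6 (4.72 and 4.85) and 4503 bp from it on chromosome 19 (0.49 and 3.54), while the tile on chromosome 1 is high in 43 of 43 windows.

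The largest falls were of another kind. On chromosome 2 the window from 107093154 to 107093731 went from 3.50 ± 1.98 untreated to -0.28 ± 0.61 with adriamycin, on chromosome 12 the window from 116925139 to 116925766 from 3.60 ± 0.86 to -0.01 ± 0.56, and on chromosome 5 the window from 51845338 to 51845662 from 2.33 ± 1.40 to -1.19 ± 0.29. Their untreated input signal was among the lowest of its array, at the 0.66 to 0.93 percentile, and rose by 2.12 to 3.07 on the log2 scale, whereas the IP signal changed by -1.39 to -0.58. With the mean input of both arrays as a common input the differences shrank to between -1.42 and -0.57, and with normexp to between -0.96 and -0.28. In these windows the input channel changed more than the IP channel, and no fold is given for them.

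In 15 tiles, 9 on design 1 and 6 on design 2, every window was at 2 or more in both arrays of the design. They held 595 windows, 32 to 44 each. Their tile medians ran from 2.88 to 3.98 untreated, with a middle value of 3.36, and from 2.79 to 3.67 with adriamycin, with a middle value of 3.32. Besides the tiles already described on chromosome 1, on chromosome 2 from 115754209 and on chromosome 6 from 52172937, they included 3 others taken in order of position. The tile on chromosome 2 from 38168080 to 38176105 had 35 windows and a median of 3.35 untreated and 2.87 with adriamycin. On chromosome 2 from 146875536 to 146883291 there were 37 windows with a median of 3.72 and 3.39, and on chromosome 5 from 38110184 to 38117912 there were 39 with a median of 3.98 and 3.35. Of the 14 such tiles with a single stretch, the highest window lay within 500 bp of the stretch in 3 untreated and 5 with adriamycin, and beyond 2000 bp in 6 and 7. Over all 8833 tiles with a single stretch, the highest window lay near it in 33.0% untreated and 47.8% with adriamycin. It lay far from the stretch in 34.5% and 24.5%.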

How the data were processed

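Per the file headers, images were read with Agilent Feature Extraction 10.1.1.1. In the deposited files the processed intensity of each channel has had its background taken off and a dye factor applied by the authors' software, and the deposited log10 ratio is that of IP over input. A value table deposited by the authors gives log2 ratios, which equal the log2 ratio of background-subtracted spot medians, are not centred and point toward IP. Positions are as in the array files, whose genome build was not given in the sources used here.

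Processed IP was divided by processed input, put on the log2 scale and centred on the median of each array, with no loess. Control spots were dropped, as were probes marked as outliers by either array (55 on design 1 and 84 on design 2). Processed input and IP were well above background for 98.8% to 99.6% and 94.3% to 98.2% of probes. Zones near and far from the stretch were set at 500 and 2000 bp, and tile ends at 1000 bp. Tiles were named by fixed rules: the 5 highest at the stretch, the 5 highest far from it, the 5 highest near an end, the 5 largest rises, the 3 largest falls and the tiles with the largest share of windows high in both arrays, by windows of spots that were unsaturated and well above background. At the stretch, far from it and near an end, tiles were ranked by their highest window with adriamycin. Tiles on chromosome 18 were counted and not named. The members, rules and lists were chosen with earlier results of these data known. Lists of p53 targets, pluripotency genes and Wnt pathway genes were not used here, for want of gene names in the array files. The scripts were tested on simulated data. R 4.3.3 with limma 3.58.1 and Python 3.11.15 with numpy 2.4.6 and pandas 2.3.3 were used. The normexp alternative (offset 50) was run on spot medians in place of the planned spot means.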

Additional observations from a re-analysis of the deposited data

How the results depend on the processing

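Values are given as untreated and then adriamycin, both designs together, beside 16 alternatives; for those not named a value moved by less than 1 SD over autosomes or a count by less than 1.5 times. Windows at 2 or more (11521 and 10726) numbered 2840 and 3666 with normexp, 4202 and 4289 with normexp without spots of extreme local background, 17699 and 17279 at a threshold of 1.5, 7547 and 6408 at 2.5, 869 and 721 with full-length probes alone, and, with adriamycin, 5967 with loess. Tiles with such a window (1388 and 1456) numbered 411 and 574, 517 and 673, 2500 and 2399, 842 and 868, and 351 and 273 in the same order, and 832 with loess and adriamycin. The share of high windows near the stretch (27.8% and 28.4%) was 23.1% and 21.1% with loess, 22.4% and 19.0% after subtracting the mean of probes of the same length, 1.67% and 1.16% with full-length probes alone, which leave few windows there, and 32.1% with adriamycin at a threshold of 1.5. The near minus far contrast (0.52 and 0.73) was reversed untreated with normexp, at -0.0405, with 0.19 for adriamycin. It was 0.15 and 0.31 without extreme backgrounds, 0.69 and 0.86 with the deposited table, 0.22 and 0.26 with loess, 0.21 and 0.29 after subtracting the length mean, and 0.19 and 0.24 with full-length probes. The end minus middle difference (-0.10 and -0.15) was reversed untreated with normexp, at 0.0179, with -0.0414 for adriamycin. It was -0.0253 and -0.0648 without extreme backgrounds, -0.0377 and -0.0621 with loess, -0.0194 and -0.0529 with full-length probes, -0.14 untreated with the deposited table and -0.10 with adriamycin after subtracting the length mean. The share of tiles with their highest window near the stretch (33.0% and 47.8%) was 20.7% and 34.1% with normexp, 21.4% and 29.2% with loess, 27.4% and 37.2% with a stretch of 9 probes, 18.5% and 23.8% after subtracting the length mean, 2.15% and 2.62% with full-length probes, and, untreated, 43.0% with the deposited table, 39.2% with a common input and 38.3% with windows of 5 probes. The difference among windows of 46 to under 50 bases (4.40 and 3.90 percentage points) was 0.42 with adriamycin with a stretch of 9 probes, and above 0 in every setting that gave a value; full-length probes give none. This difference and the share of tiles by highest window were chosen after seeing the data. Where not stated, the cause was not tested. No paired analysis was possible because a design has a single array per condition, and no replicate could be left out for the same reason.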
